A study of Gossypium barbadense and Gossypium hirsutum with 72 samples.

Results

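A set of 289 gene models told the 2 Gossypium barbadense lines of the study, Hai1 and Xinhai16, apart in every library at every stage, out of 64274 models with a read in any of 36 mRNA libraries. They were chosen by their levels in these same libraries. The lowest of the 9 libraries of one line had to exceed 2 times the highest of the 9 libraries of the other, with a mean of at least 1 RPKM (reads scaled to coding length and library total) in the higher line. By this rule 65 genes were higher in Hai1 (0.153% of the genes with such a mean there) and 224 were higher in Xinhai16 (0.52%). The difference between these lines is therefore a description and carries no test. Levels in G. hirsutum were not used to choose them and are tested. Changes between stages are tested too, but they bear on the lowest and highest libraries that the rule compares.

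Hai1 is a G. barbadense line with normal fruiting branches (WT) and Xinhai16 is a G. barbadense line with nulliplex branches (np), in which flowers arise straight from the leaf axils of the main stem. The G. hirsutum lines are Huazhong 94-3130 (normal branch) and 3798 (nulliplex branch). Shoot apices of field-grown plants were taken from seedlings (1 in the group names), before squaring (2, pre-squaring) and at squaring (3), 3 libraries each, so that each line has 9. Seedlings had 2 leaves in all lines. At the later stages the study's text and the labels give leaf numbers that do not match in all groups. By the labels, plants had 8 leaves in Gb2WT, 6 in Gb2np, 11 in Gb3WT and 9 in Gb3np, and 6 in Gh2WT, 5 in Gh2np, 8 in Gh3WT and 12 in Gh3np. The lines are selfed varieties without shared parentage, so branch type and line cannot be told apart, nor can leaf number at the later stages. Between 23.9 M and 28.1 M reads (M for mega) were counted per library, and the range in G. barbadense was 23.9 M to 25.96 M.

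G. barbadense and G. hirsutum are allotetraploids: most genes exist as a pair of similar copies, one from each ancestral genome, beside younger duplicates. The shoot apex holds the meristem that makes leaves and axillary buds and later the flower buds called squares. Reads of all lines, G. barbadense included, were aligned to a G. hirsutum genome. Whether a gene with few or no reads in a line is silent there, missing from its genome or too different to be aligned was not tested, and reads of near-identical copies may be split between models. Dividing-cell genes (PCNA2, the sliding clamp of replication, and ORC6, a subunit of the origin recognition complex) were found in every library, with a summed level of 15.99 to 51.9 RPKM in Hai1 and 12.2 to 85.5 in Xinhai16. Green-leaf genes (CA1, GGR and a ferredoxin-related gene) summed to 20.8 to 1167 RPKM in Hai1 and 54.5 to 911.7 in Xinhai16. Over all stages both ranges overlap between the lines, but group means differed within stages. At pre-squaring the dividing-cell sum averaged 23.8 RPKM in Gb2WT and 79.0 in Gb2np, and the green-leaf sum 29.9 and 88.3. At squaring the dividing-cell sum averaged 36.9 RPKM in Gb3WT and 55.3 in Gb3np. The part of these markers in the differences between lines was not tested. SEP3, a flower-organ regulator, had no read in seedlings of any line, and BRC1, a regulator of axillary buds, averaged at most 3.56 RPKM in a group. SEP3 averaged 0.468 RPKM in Gb2WT and 2.72 in Gb2np, and 2.26 in Gb3WT and 7.54 in Gb3np. BRC1 averaged 3.56 RPKM in Gb2WT and 1.25 in Gb2np, and 2.26 in Gb3WT and 1.15 in Gb3np. The part of SEP3 and BRC1 was not tested either.

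The gap between the lines was mostly wide. Of the 65 Hai1-high genes, 55 averaged under 1 RPKM in Xinhai16 and 35 under 0.1 RPKM, and 13 had no read in any of its 9 libraries. Of the 224 Xinhai16-high genes, 186 averaged under 1 RPKM in Hai1, 101 under 0.1 RPKM, and 23 had no read there. In the 52 Hai1-high genes with a read in the lower line, the ratio of the means ranged upward from 3.72 with a median of 25.1. In the corresponding 201 Xinhai16-high genes it ranged upward from 3.60 with a median of 46.8. The higher line averaged 1.14 to 76.2 RPKM in Hai1-high genes (median 4.39) and 1.01 to 476.1 RPKM in Xinhai16-high genes (median 7.66). Over all genes of at least 1 RPKM in the line, the median level was 8.65 in Hai1 and 8.80 in Xinhai16. More than 100 RPKM was reached by 16 Xinhai16-high genes and by no Hai1-high gene.

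**Figure D1:**
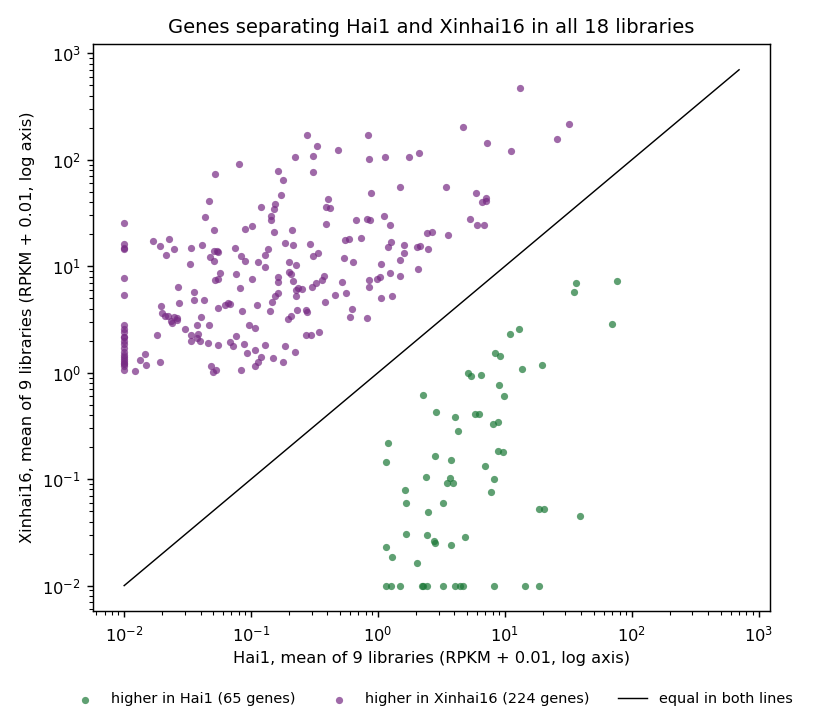
Mean RPKM of each of the 289 genes in Hai1 (x axis) and Xinhai16 (y axis), 9 libraries each, on log axes after adding 0.01; the line marks equal levels. The 65 Hai1-high genes lie below the line and the 224 Xinhai16-high genes above it, and genes without a read in the lower line sit at 0.01.

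Just inside and outside the 2-fold limit, values ran on without a break. CotAD_02175 (at least 0.901 RPKM in Hai1, at most 0.442 in Xinhai16) and CotAD_60774 (3.35 and 1.65) were the nearest Hai1-high genes inside, each with a gap of 2.04. CotAD_31034 and CotAD_17384 fell outside with gaps of 1.99 and 1.86. On the Xinhai16-high side CotAD_36605 and CotAD_68865 were inside with gaps of 2.00 and 2.01, and CotAD_27823 and CotAD_41093 were outside with gaps of 2.00 and 1.97. The gap of CotAD_27823 before rounding was 1.9955. Between 1.5 and 2 lay 18 genes on the Hai1 side and 47 on the Xinhai16 side, including those just named as outside.

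The most abundant Hai1-high gene was CotAD_11996. It read 39.1, 47.8 and 42.0 RPKM in the Hai1 seedlings, 91.2, 94.9 and 90.5 at pre-squaring and 96.4, 94.7 and 89.1 at squaring. In Xinhai16 it read 4.92, 4.34 and 5.02, then 9.73, 5.91 and 7.31, then 9.83, 8.57 and 9.01. Seedlings were the lowest group in both lines, and the means over all stages were 10.6 times apart. Both G. hirsutum lines held it near the level of Hai1, at 70.0 ± 23.9 RPKM (SD, n = 9) in Huazhong 94-3130 and 75.8 ± 20.8 in 3798.

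CotAD_11554 was next, at a lowest, median and highest level of 55.7, 68.5 and 93.1 RPKM in Hai1 and 0.980, 3.03 and 4.74 in Xinhai16. CotAD_44751 had 21.97, 37.6 and 57.2 RPKM in Hai1 against a highest value of 0.121 in Xinhai16, where 8 reads were counted in all. Its gap of 181.4 between the lowest and the highest library was the widest of the Hai1-high genes with a read in the other line. Here too the G. hirsutum lines were near Hai1, at 73.6 ± 9.93 and 76.0 ± 14.8 RPKM for CotAD_11554 and 32.8 ± 11.4 and 32.3 ± 11.1 for CotAD_44751. CotAD_67094 (36.03 ± 6.19 RPKM in Hai1, 6.96 ± 1.22 in Xinhai16) and CotAD_38317 (34.8 ± 9.95 and 5.71 ± 1.63) kept a sizeable level in both lines. The next widest gaps were those of CotAD_57941 (at least 9.19 RPKM in Hai1, at most 0.195 in Xinhai16), CotAD_51067 (0.846 and 0.0304), CotAD_20064 (5.25 and 0.207) and CotAD_52868 (1.59 and 0.0728).

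The most abundant Xinhai16-high gene, CotAD_72360, changed with stage in both lines. In Xinhai16 its seedlings read 94.6, 83.2 and 229.2 RPKM, the pre-squaring libraries 625.3, 623.0 and 633.6 and the squaring libraries 684.9, 651.7 and 659.2. In Hai1 the values were 0.704, 0.668 and 0.496, then 23.0, 14.3 and 10.6, then 21.3, 29.8 and 18.03. The lowest Xinhai16 library stayed 2.79 times above the highest Hai1 library although these came from different stages. CotAD_72360 averaged 536.0 ± 244 RPKM (SD, n = 9) in Huazhong 94-3130 and 614.4 ± 238 in 3798.

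CotAD_07370 averaged 215.1 ± 72.9 RPKM in Xinhai16 and 31.9 ± 7.42 in Hai1. Unlike the genes above, it was near the lower line in G. hirsutum, at 41.1 ± 20.8 and 43.5 ± 23.7 RPKM. CotAD_65102 (202.8 ± 60.7 RPKM in Xinhai16, 4.62 ± 3.96 in Hai1), CotAD_67629 (172.5 ± 87.4 and 0.817 ± 0.966) and CotAD_12184 (170.9 ± 75.3 and 0.2655 ± 0.177) were nearer the higher line in G. hirsutum. Their means there lay between 124.2 RPKM (CotAD_65102 in 3798) and 158.9 RPKM (CotAD_12184 in 3798). CotAD_36868 had the widest gap of the set, with a lowest, median and highest level of 61.2, 72.8 and 84.6 RPKM in Xinhai16 and at most 0.186 RPKM in Hai1. Its level in G. hirsutum was near that of Xinhai16, at 79.3 ± 25.6 RPKM in Huazhong 94-3130 and 78.0 ± 7.62 in 3798. Wide gaps were also held by CotAD_09445 (at least 9.07 RPKM in Xinhai16, at most 0.0665 in Hai1), CotAD_07116 (10.1 and 0.0991), CotAD_18206 (27.8 and 0.325) and CotAD_67810 (8.12 and 0.102). CotAD_67810 had 2 reads in all of Hai1, a ratio of 1145 with a 95% counting interval of 316.5 to 9457.

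**Figure D2:**
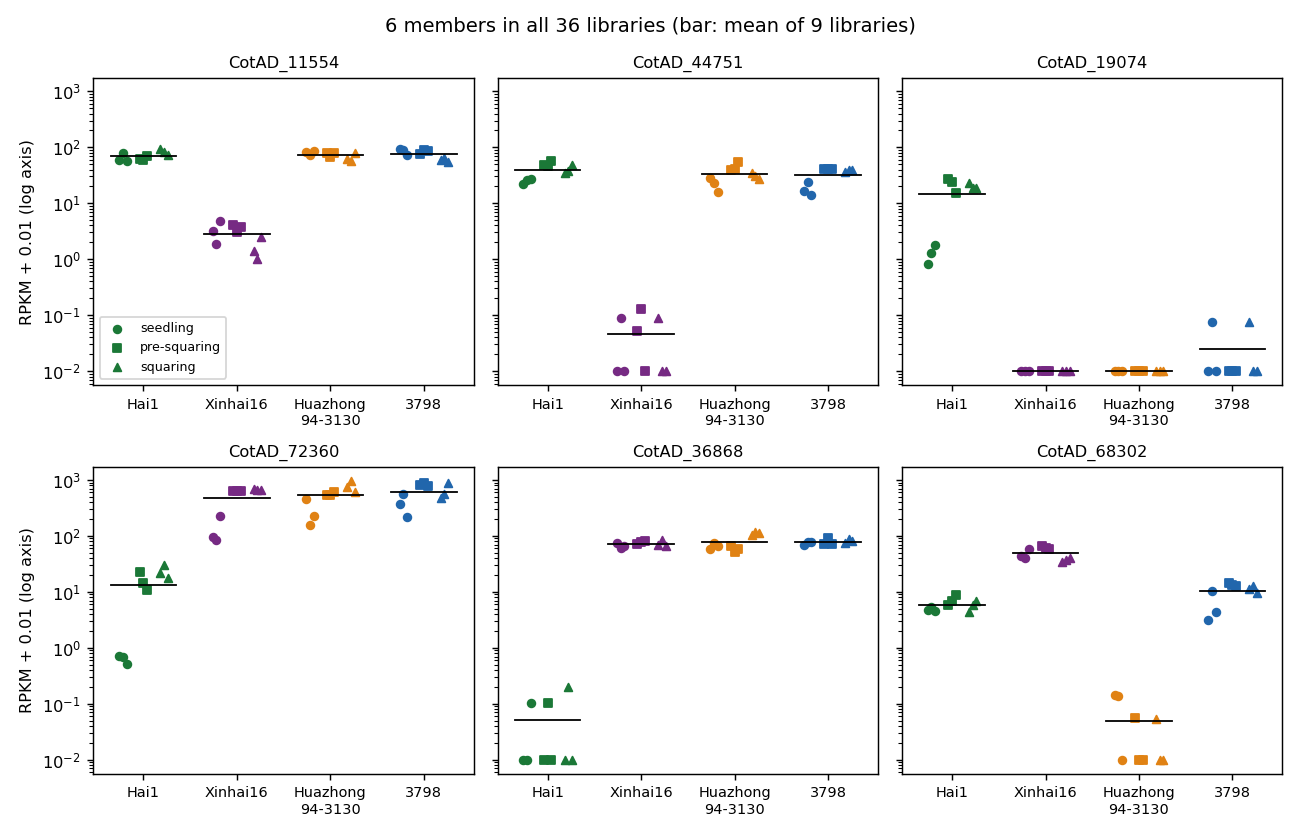
RPKM of 6 genes in each of the 36 libraries, by line (x axis) on a log axis after adding 0.01; circles are seedlings, squares pre-squaring, triangles squaring, and the bar is the mean of 9 libraries. The G. hirsutum lines sit beside the higher G. barbadense line for CotAD_11554, CotAD_44751, CotAD_72360 and CotAD_36868, at or near 0 for CotAD_19074, and apart from each other for CotAD_68302.

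Among genes with no read in the lower line, CotAD_68825 had 8.01 to 33.1 RPKM in Hai1 (median 17.0), at least 278.7-fold above Xinhai16 when 3 counts over its 9 libraries are taken as the limit of detection. CotAD_19074 read 0.824, 1.28 and 1.78 RPKM in Hai1 seedlings, 27.2, 23.5 and 15.03 at pre-squaring and 23.0, 19.0 and 18.6 at squaring, at least 1265-fold above Xinhai16. CotAD_51069 (8.23 ± 3.17 RPKM in Hai1), CotAD_75833 (4.64 ± 1.97) and CotAD_47074 (4.39 ± 0.856) followed. In G. hirsutum these genes parted: CotAD_68825 averaged 30.65 ± 12.3 and 29.85 ± 7.73 RPKM, while CotAD_19074 had 4 reads and CotAD_47074 1 read in all 18 libraries.

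CotAD_21594 was the most abundant Xinhai16-high gene without a read in Hai1, with 6.22, 3.47 and 16.03 RPKM in seedlings, 30.2, 31.5 and 30.3 at pre-squaring and 39.5, 38.3 and 34.5 at squaring. This is at least 2994-fold above Hai1. In G. hirsutum it was listed at 1.58 ± 0.661 and 1.40 ± 0.431 RPKM, between the 2 G. barbadense lines. CotAD_48252 averaged 16.3 ± 4.62 RPKM in Xinhai16 and 15.1 ± 13.3 in Huazhong 94-3130 and 5.80 ± 4.03 in 3798. CotAD_66906 (14.9 ± 3.29 RPKM), CotAD_48910 (14.4 ± 5.0) and CotAD_19985 (7.67 ± 4.26) were found in Xinhai16 nearly alone, with 0, 1 and 2 reads in the 18 G. hirsutum libraries. Of all 36 genes without a read in the lower line, 31 had at least 1 read in G. hirsutum and 5 had none, with no share over all genes to set beside this.

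The reads of the higher line covered most of the coding length in most models, but not in all. The share of the coding length covered, averaged over 9 libraries, had a median of 92.1% in Hai1 for Hai1-high genes and 94.6% in Xinhai16 for Xinhai16-high genes, beside 96.1% over all genes of at least 1 RPKM in either line. The lowest such shares in the higher line were 17.299% for Hai1-high and 14.008% for Xinhai16-high genes. In the lower line the medians were 12.4% and 17.8%. CotAD_12184 was covered to 99.5% in Xinhai16 and 42.2% in Hai1, the latter by 22 reads in 9 libraries. CotAD_11996 and CotAD_67094 were covered to 97.1% even in the lower line. The models were short: the median coding length was 756 bases for Hai1-high and 948 for Xinhai16-high genes, against 1050 for all genes of at least 1 RPKM in either line.

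The G. hirsutum libraries, which the rule did not use, mostly lay above the lower line. All 18 lay above the highest library of the lower G. barbadense line for 45 of 65 Hai1-high genes and 174 of 224 Xinhai16-high genes. All 18 were at or below that library for 9 and 15 genes, and 11 and 35 genes were spread over it. This limit is low, as 241 of the 289 genes averaged under 1 RPKM in the lower line. No share over all genes stands beside these counts, so they do not show a likeness to the higher line. The mean over G. hirsutum divided by the mean of the higher line had a median of 0.779 in Hai1-high and 0.952 in Xinhai16-high genes, with 61.5% and 63.8% of the genes within 2-fold. Over all genes of at least 1 RPKM in the line, this ratio had a median of 0.991 for Hai1 and 0.968 for Xinhai16, with 87.6% and 88.7% within 2-fold.

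Levels in G. hirsutum far from that of the higher line were found both below and above it. CotAD_60946 averaged 119.8 ± 45.1 RPKM in Xinhai16 and 11.2 ± 3.68 in Hai1 but 0.823 ± 0.609 and 0.401 ± 0.324 in the G. hirsutum lines. CotAD_71624 averaged 105.3 ± 76.1 RPKM in Xinhai16, 1.14 ± 1.10 in Hai1, and under 0.5 in both G. hirsutum lines (0.493 and 0.329). In the other direction CotAD_28935 averaged 1.79 ± 0.410 RPKM in Xinhai16 and 0.118 ± 0.0966 in Hai1, against 25.3 ± 9.79 and 27.5 ± 12.2 in G. hirsutum. These 3 genes were picked after their values were seen. In all, 42 of the 289 genes had a G. hirsutum mean under 0.1 times that of the higher line, and 9 had no read in any G. hirsutum library.

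**Figure D3:**
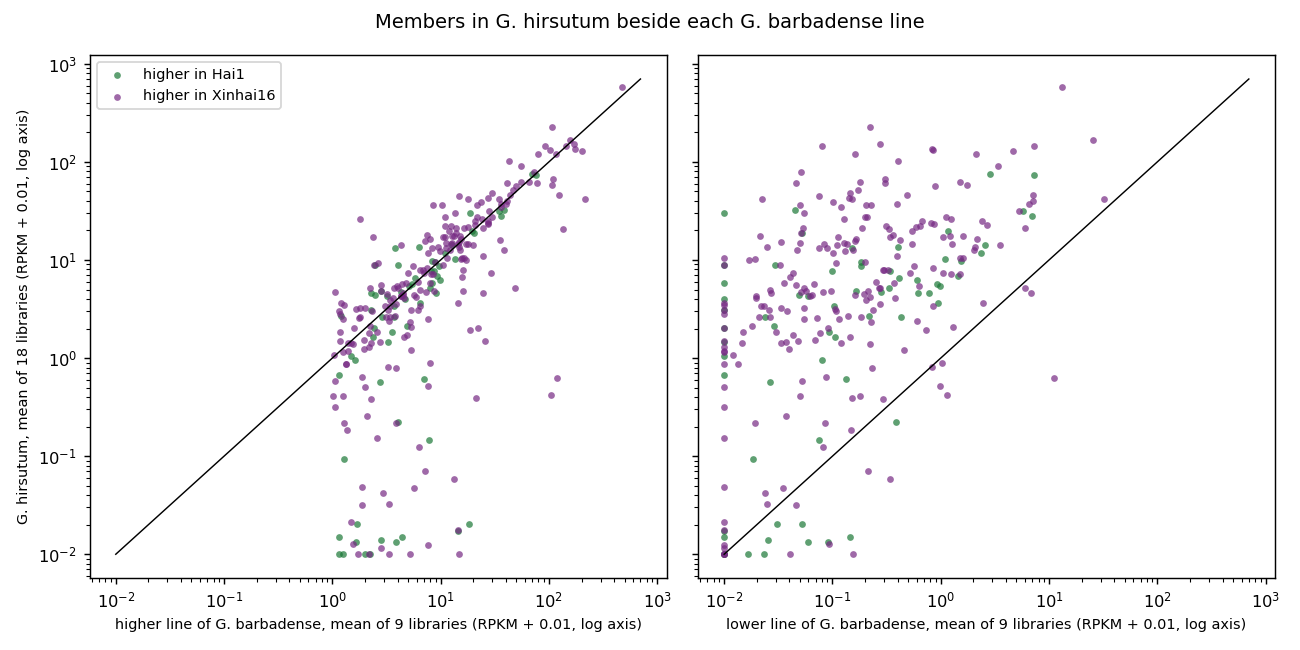
Mean RPKM of the 289 genes over the 18 G. hirsutum libraries (y axis) against the higher (left) and the lower (right) G. barbadense line (x axis), on log axes after adding 0.01; the line marks equal levels. On the left 183 genes lie within 2-fold of the higher line, 28 above that range and 78 below it, of which 42 lie below 0.1 times its level. On the right most points lie above the line.

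Whether the 289 genes also part the G. hirsutum lines was tested with edgeR on 18 libraries, contrasting 3798 with Huazhong 94-3130 over the 3 stages. Of 253 genes tested, 12 passed the threshold used throughout, a Benjamini-Hochberg adjusted p below 0.001 with a log2 fold change beyond 1 in either direction. All 7 that were higher in 3798 (2.77% of those tested, against 0.537% of all genes) were Xinhai16-high genes, so that the nulliplex line was the higher one in both species. Of the 5 that were lower in 3798 (1.98%, against 0.39% of all genes), 2 were Hai1-high and 3 Xinhai16-high. The median log2 fold change was 0.08 over the 51 Hai1-high and 0.17 over the 202 Xinhai16-high genes tested, beside 0.02 over all genes. Within single stages fewer passed. In seedlings none of 244 tested did, nor any of all 44549 genes, and 24 of the 244 had an unadjusted p under 0.05 beside 5855 of all genes. At pre-squaring 2 of 246 passed, both higher in 3798, beside 54 higher and 57 lower of all 46345 genes. An unadjusted p under 0.05 was reached there by 124 of the 246, beside 11933 of all genes. At squaring 3 of 243 were higher and 4 lower, beside 402 and 424 of all 46482 genes. Here 109 of the 243 had an unadjusted p under 0.05, beside 19007 of all genes.

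Of the genes higher in 3798, CotAD_68302 had the largest log2 fold change. In 3798 it read 3.11, 10.5 and 4.41 RPKM in seedlings, 14.3, 13.4 and 12.7 at pre-squaring and 11.4, 12.5 and 9.45 at squaring, while Huazhong 94-3130 had no library over 0.131 RPKM. By edgeR the log2 fold change was 8.14 (SE 0.37, adjusted p = 3.7e-10). In G. barbadense it averaged 49.05 ± 11.9 RPKM in Xinhai16 and 5.93 ± 1.41 in Hai1, so the nulliplex line was higher in both species at different levels.

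CotAD_24371 read 57.3 ± 37.8 RPKM in 3798 and 2.805 ± 2.29 in Huazhong 94-3130 (log2 fold change 4.23, SE 0.27, adjusted p = 2.1e-08). Its levels were spread widely because seedlings were low in both lines, and the 9 libraries of each overlapped across stages. In Xinhai16 its seedlings read 0.780, 0.302 and 3.33 RPKM and the later libraries 15.9 to 23.0. The consecutive models CotAD_25394 and CotAD_25395 were 5.70 (SE 0.56) and 2.92 (SE 0.32) higher in 3798 on the log2 scale, with adjusted p of 1.4e-05 and 1.5e-05. In RPKM, CotAD_25394 averaged 3.89 ± 1.78 in Xinhai16 and 0.221 ± 0.202 in Hai1, and 1.52 ± 0.776 in 3798 and 0.0363 ± 0.0544 in Huazhong 94-3130. CotAD_73639 averaged 5.81 ± 1.66 RPKM in 3798 and 2.27 ± 0.225 in Huazhong 94-3130, with a lowest value of 3.94 in the one and a highest of 2.70 in the other (log2 fold change 1.30, SE 0.12, adjusted p = 2.5e-06).

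Lower in 3798 were the Hai1-high genes CotAD_49344 and CotAD_51067. CotAD_49344 had no read in any 3798 library and 0.575 to 13.3 RPKM in Huazhong 94-3130, which is at least 152.2-fold above the limit of 3 counts summed over that line (adjusted p = 0.00036 from edgeR). It averaged 4.88 ± 3.05 RPKM in Hai1 and had 2 reads in Xinhai16, so that the normal-branch line was higher in both species. CotAD_51067 averaged 0.160 ± 0.0440 RPKM in Huazhong 94-3130 and 0.00670 ± 0.0133 in 3798 (log2 fold change -5.33, SE 0.57, adjusted p = 0.000101). The Xinhai16-high genes CotAD_50745 (log2 fold change -8.06, SE 0.89), CotAD_27833 (-2.53, SE 0.31) and CotAD_27834 (-1.97, SE 0.28) ran the other way, being higher in the nulliplex line of G. barbadense and lower in that of G. hirsutum. CotAD_50745 read 5.75, 0 and 10.8 RPKM in Gh1WT, 7.34, 3.10 and 3.20 in Gh2WT and 17.8, 20.1 and 19.1 in Gh3WT, and at most 0.113 in 3798. One of the 9 Huazhong 94-3130 libraries thus listed no read of this gene. The opposite direction in the 2 species was not tested as an interaction.

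Applied to the G. hirsutum lines, the same rule picked 63 genes higher in Huazhong 94-3130 (0.147% of genes with at least 1 RPKM there) and 72 higher in 3798 (0.167%). CotAD_49344 met it on the Huazhong side, and CotAD_25394, CotAD_25395 and CotAD_68302 on the 3798 side, so 4 genes parted both pairs of lines in the same direction of branch type. Without the 2-fold limit, the 9 and 9 libraries did not overlap in 1 of 47 Hai1-high genes with at least 1 RPKM in a G. hirsutum line, which was higher in Huazhong 94-3130 (0.296% of all such genes), and in 5 of 188 Xinhai16-high genes, all higher in 3798 (0.326% of all such genes).

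The genes often came as neighbours in the numbering of the gene models. Of 74 models whose number is next to that of a Hai1-high gene and that reached 1 RPKM in Hai1, 21 (28.4%) were themselves Hai1-high, against 0.153% of all models at that level. Of 238 such neighbours of Xinhai16-high genes, 60 (25.2%) were Xinhai16-high, against 0.52%. Whether consecutive numbers lie side by side in the genome was not checked, as no annotation of these models was used here, and neighbouring models can be duplicates that share reads. Hai1-high genes formed 8 runs of consecutive numbers and Xinhai16-high genes 28. There were 2 pairs of consecutive numbers with opposite direction, CotAD_03629 (Hai1-high) with CotAD_03630 (Xinhai16-high), and CotAD_38317 (Hai1-high) with CotAD_38316 (Xinhai16-high).

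The longest run was CotAD_51065 to CotAD_51071, 7 Hai1-high models in a row. They averaged from 1.27 ± 0.304 RPKM (CotAD_51067) to 9.91 ± 2.53 (CotAD_51071) in Hai1. In Xinhai16 the highest average was 0.937 ± 0.330 (CotAD_51065), and CotAD_51069 had no read. Except for CotAD_51067, described above, all of them averaged more in both G. hirsutum lines than in Xinhai16, between 1.48 (CotAD_51068 in Huazhong 94-3130) and 7.09 RPKM (CotAD_51071 in 3798). The models just before the run did not part the lines: CotAD_51063 averaged 9.88 ± 1.14 RPKM in Hai1 and 9.93 ± 1.37 in Xinhai16, and CotAD_51064 averaged 2.25 ± 0.973 and 1.80 ± 0.626. Behind it, CotAD_51072 was at or near 0 in all lines and CotAD_51073 averaged 0.513 ± 0.339 and 0.504 ± 0.181.

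The longest Xinhai16-high run, CotAD_21764 to CotAD_21767, showed the same in mirror image. The 4 models averaged 3.87 ± 1.196, 7.59 ± 3.50, 5.36 ± 3.43 and 12.7 ± 7.62 RPKM in Xinhai16 and at most 0.262 ± 0.293 in Hai1. In Huazhong 94-3130 the same models averaged 3.24, 10.8, 3.18 and 13.8 RPKM. CotAD_21763, next to the run, averaged 118.5 ± 18.2 RPKM in Hai1 and 130.8 ± 25.9 in Xinhai16. Looser stretches, with members at most 10 numbers apart, held 4 Hai1-high genes from CotAD_14644 to CotAD_14653, 5 Xinhai16-high genes from CotAD_24285 to CotAD_24292, 7 from CotAD_27828 to CotAD_27848 and 4 from CotAD_67809 to CotAD_67814. In the stretch from CotAD_24285, CotAD_24288 averaged 65.0 ± 31.5 RPKM in Xinhai16 and 0.169 ± 0.200 in Hai1, while CotAD_24290 inside the stretch averaged 17.8 ± 2.52 in Hai1 and 16.7 ± 2.85 in Xinhai16. In the stretch from CotAD_27828, CotAD_27837 averaged 134.6 ± 76.0 RPKM in Xinhai16 and 0.322 ± 0.424 in Hai1, and 28.4 ± 17.2 and 13.1 ± 6.52 in G. hirsutum.

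**Figure D4:**
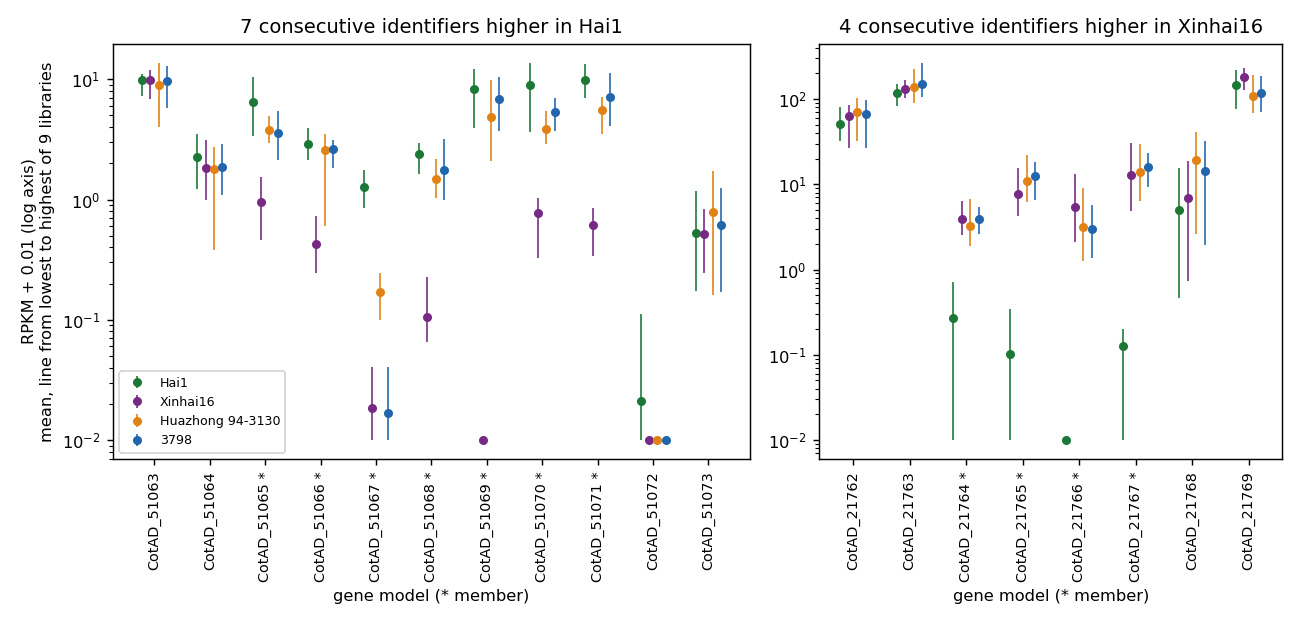
RPKM of the gene models in and beside a run of 7 Hai1-high models (left) and of 4 Xinhai16-high models (right), on a log axis after adding 0.01; points are means and lines run from the lowest to the highest of the 9 libraries of a line, and stars mark the members. In the runs 1 G. barbadense line drops below the other lines, except that 3798 is as low as Xinhai16 for CotAD_51067, while the models beside the runs overlap.

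Stage was compared within the line that holds the genes high. The rule used the lowest of the same 9 libraries and so leaves out genes that drop far at any stage. The shares over all genes are printed beside these counts as background only, and nothing is read from the difference. In Hai1, 3 of 63 Hai1-high genes tested rose from seedling to pre-squaring (9.38% of all genes did) and 5 fell (10.9% of all genes). In Xinhai16, 8 of 222 Xinhai16-high genes rose (6.96% of all genes) and 11 fell (9.56% of all genes). From pre-squaring to squaring, none of 63 Hai1-high genes passed in either direction, as did no gene at all (0% up and 0% down of 46135 tested by edgeR). At an unadjusted p under 0.05 there were 16 Hai1-high genes and 10858 genes in all, and DESeq2 also called none of the Hai1-high genes but 403 of all genes. In Xinhai16, 8 of 221 rose (1.8% of all genes) and 1 fell (2.31% of all genes). Tissue markers moved with stage as well. From seedling to pre-squaring the green-leaf sum averaged 1088 and then 29.9 RPKM in Hai1, and 751.4 and then 88.3 in Xinhai16. Most of this sum was CA1, at 1080 and then 21.7 RPKM in Hai1, and 740.6 and then 59.1 in Xinhai16. GGR averaged 3.55 and then 2.73 RPKM in Hai1, but 8.04 and then 17.7 in Xinhai16. The ferredoxin-related gene rose in both lines, to 5.51 RPKM in Hai1 and 11.5 in Xinhai16. The dividing-cell sum averaged 28.4 and then 23.8 RPKM in Hai1, and 26.5 and then 79.0 in Xinhai16. Their part in the changes was not tested.

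The largest changes in Hai1 were from seedling to pre-squaring. CotAD_19074, given above, rose by 3.73 (SE 0.31, edgeR adjusted p = 7.8e-06), and CotAD_03629 rose by 2.87 (SE 0.28, adjusted p = 2.3e-05) on the log2 scale. CotAD_03629 read 0.639, 1.06 and 1.15 RPKM in seedlings, 11.04, 9.06 and 6.47 at pre-squaring and 15.8, 9.67 and 7.95 at squaring. CotAD_51070 of the run of 7 rose by 1.25 (SE 0.17, adjusted p = 0.00017). Conversely, CotAD_15107 fell from 36.9, 48.1 and 66.8 RPKM in seedlings to 3.81, 2.86 and 2.67 (log2 fold change -4.37, SE 0.27, adjusted p = 1.4e-06), and its squaring libraries read 2.35, 1.54 and 1.01. CotAD_67648 (log2 fold change -2.86, SE 0.30) and CotAD_26683 (-2.16, SE 0.35) fell as well, the latter with its call lost in 6 of 10 alternatives. CotAD_15107 and CotAD_67648 had 2 reads each in the 18 G. hirsutum libraries, and 4 reads each in Xinhai16.

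By the same edgeR test, CotAD_76734 in Xinhai16 rose from 1.16, 1.13 and 2.21 RPKM in seedlings to 23.9, 21.2 and 20.4 at pre-squaring (log2 fold change 3.58, SE 0.24, adjusted p = 1.7e-05). CotAD_40118 rose by 3.42 (SE 0.26) and CotAD_24292 by 2.75 (SE 0.33). CotAD_31223 fell from 2.87, 2.92 and 1.63 RPKM to 0.130, 0.381 and 0.255 (log2 fold change -3.53, SE 0.46, adjusted p = 0.00044) with the call lost in 6 of 10 alternatives, and CotAD_76275 (-2.40, SE 0.23) and CotAD_11229 (-2.28, SE 0.23) fell too. From pre-squaring to squaring CotAD_13727 fell from 78.7, 98.2 and 95.0 RPKM to 23.1, 19.0 and 21.4 (log2 fold change -2.09, SE 0.11, adjusted p = 5.9e-06), after a rise from 12.1, 11.3 and 25.4 in seedlings. CotAD_16666 (log2 fold change 2.17, SE 0.31), CotAD_75347 (1.65, SE 0.21) and CotAD_11229 (1.59, SE 0.21) rose at that step, but the calls of CotAD_16666 and CotAD_75347 were lost in 6 of 10 alternatives each and that of CotAD_11229 in 5.

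One seedling library of Xinhai16 weighs on these counts. Replicate 3 of Gb1np lay above replicates 1 and 2 in 176 of 224 Xinhai16-high genes (78.6%), against 47.4% of all genes of at least 1 RPKM in that line. The rule chose the genes on these same libraries, so the 2 shares are a description and no test. In Gb1np replicate 3 the dividing-cell genes summed to 42.5 RPKM against 24.6 and 12.2 in replicates 1 and 2, and the green-leaf genes to 599.6 against 742.8 and 911.7. A raised dividing-cell sum was not particular to this library. In Hai1 seedlings it was 51.9 RPKM in Gb1WT replicate 2 against 15.99 and 17.2 in replicates 1 and 3. Without Gb1np replicate 3, 85 rather than 19 Xinhai16-high genes passed from seedling to pre-squaring, 70 up and 15 down of 223 tested. Of all 47346 genes tested, 5483 then passed up and 5717 down. With all libraries, 3220 of all 46274 genes passed up and 4424 down. The rule itself picked 225 Xinhai16-high genes without this library. Leaving out Gb1np replicate 1 gave 9 calls, and leaving out Gb2np replicate 1, 2 or 3 gave 10, 5 and 6. The 8 calls in Hai1 became 5 without Gb1WT replicate 1, 9 without Gb1WT replicate 2 and 4 without Gb2WT replicate 1 or 2. The 9 calls at the later step in Xinhai16 became 3 without Gb2np replicate 2 or 3 and 5 without Gb3np replicate 3. Whether the marker levels of Gb1np replicate 3 have a part in the counts was not tested. The direction split differed between tools, and what moved it was not tested. The median log2 ratio of mean RPKM from seedling to pre-squaring was 0.36 in Hai1 and 0.30 in Xinhai16 over all genes of at least 1 RPKM, and the median edgeR log2 fold change, after TMM scaling, was 0.01 in both. By limma on log2(RPKM + 1), 8 Hai1-high genes rose and 2 fell, and 23 Xinhai16-high genes rose and 8 fell, beside 5892 up and 3010 down of all genes in Hai1 and 4899 up and 2980 down in Xinhai16. By DESeq2 the split was 7 up and 7 down in Hai1 and 40 up and 19 down in Xinhai16, beside 5526 up and 5853 down of all genes in Hai1 and 5336 up and 5792 down in Xinhai16.

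**Figure D5:**
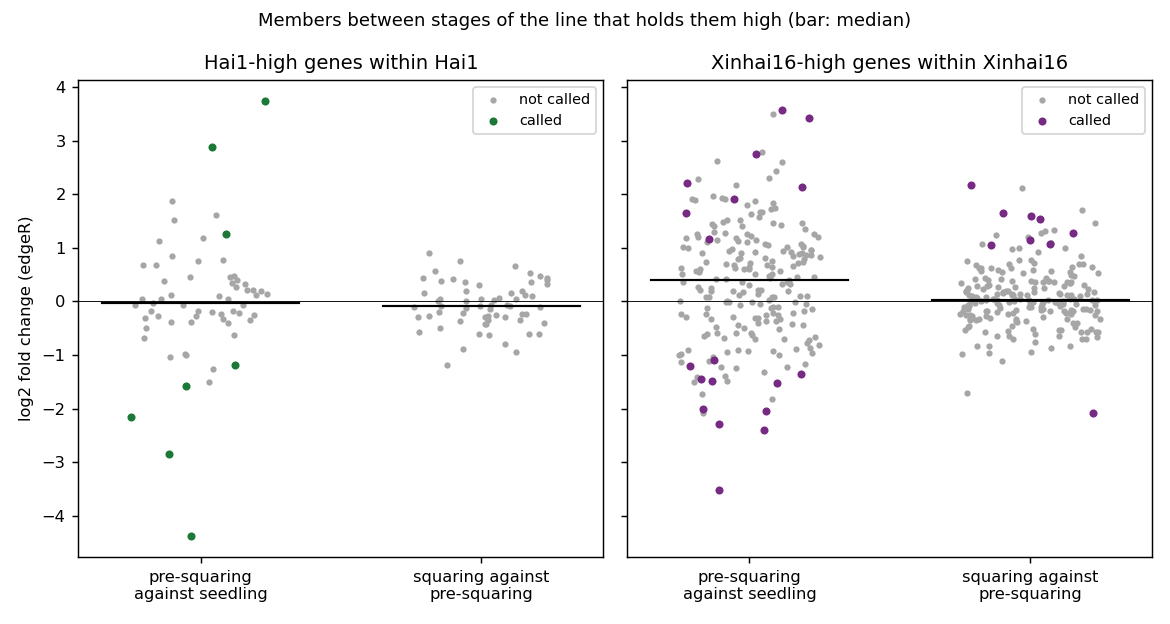
log2 fold change (edgeR, y axis) of the Hai1-high genes within Hai1 (left) and the Xinhai16-high genes within Xinhai16 (right) for both steps between stages (x axis); each point is a gene, coloured where it passed the threshold, and the bar is the median. From seedling to pre-squaring 8 and 19 genes passed, and from pre-squaring to squaring 0 and 9.

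Few of these genes carry a description. Of 146 gene models that the tables of the study describe or pair with a miRNA, 2 were among the 289: none of 7 for DNA replication and cell division, none of 18 transcription and flowering regulators (1 gene that meets the rule on the Hai1 side is left out by name and counted in no list), none of 11 for the cell wall, none of 18 receptor and disease resistance proteins, none of 8 stress and defence proteins, none of 11 transport genes, none of 11 for carbon and redox metabolism and none of 23 other named genes. These counts say little about function. The study listed many of these models for differing between branch types at pre-squaring specifically. The rule, in contrast, asks for a difference at every stage. Over all genes of at least 1 RPKM it picked only 0.153% on the Hai1 side and 0.52% on the Xinhai16 side. CotAD_19197, 1 of 9 secondary metabolism genes, encodes an O-methyltransferase family protein, an enzyme class that adds methyl groups to small molecules such as lignin precursors. It read 0.772, 0.719 and 1.195 RPKM in Gb1np, 1.85, 1.17 and 1.30 in Gb2np and 1.17, 1.81 and 1.21 in Gb3np, and at most 0.340 in Hai1. CotAD_28336, with no function given (1 of 30 such models), averaged 2.44 ± 0.769 RPKM in Hai1 and had 1 read in Xinhai16, a ratio of 126.9 with a counting interval of 22.4 to 5050. Both were also read in G. hirsutum, CotAD_19197 at 3.08 ± 1.76 and 1.89 ± 0.932 RPKM and CotAD_28336 at 8.53 ± 2.83 and 9.43 ± 3.60.

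The study paired both genes with miRNAs that moved against them at squaring in G. barbadense, so the next values are no independent evidence. Known members of the miR157 family target SPL regulators of phase change. As RPM (reads scaled to the miRNA reads of the library), miR157a-5p stood at 80285.2, 93885.5 and 101534.9 in Gb3WT and at 5111.2, 7485.0 and 4815.9 in Gb3np, where CotAD_19197 was the higher. In seedlings, where CotAD_19197 was also higher in Xinhai16, this miRNA averaged 597929.5 ± 11748.7 (SD, n = 3) in Gb1WT and 623722.3 ± 32691.2 in Gb1np. At pre-squaring it averaged 43774.6 ± 4926.8 in Gb2WT and 24148.5 ± 6953.0 in Gb2np, the same order as at squaring. In G. hirsutum it averaged 405970.9 and 419465.7 in Gh1WT and Gh1np, 32343.6 and 23182.6 in Gh2WT and Gh2np, and 56908.4 and 18144.4 in Gh3WT and Gh3np. miR1159.1 had no read in the 3 Gb3WT libraries and 2008.7, 894.6 and 1725.5 RPM in Gb3np. At pre-squaring it averaged 1521.0 ± 290.7 in Gb2WT and 1728.5 ± 763.0 in Gb2np, although CotAD_28336 was higher in Hai1 at that stage as well. In seedlings miR1159.1 averaged 55.4 in Gb1WT, all of it from replicate 3, and had no read in Gb1np. In G. hirsutum it averaged 0 and 48.5 in Gh1WT and Gh1np, 1023.8 and 1389.9 in Gh2WT and Gh2np, and 0 and 740.0 in Gh3WT and Gh3np.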

How the data were processed

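Shoot apices gave 36 mRNA and 36 small RNA libraries, 3 for each line and stage. The authors aligned HiSeq 2000 reads to a G. hirsutum genome with SOAP2, allowing at most 5 mismatches. The deposited counts are raw reads per gene model. The RPKM values were computed by the authors from these counts, the model length (coding length) and the library total. The coverage values deposited by the authors give the percent of each model covered by reads. Small RNA counts, also deposited, were divided by the miRNA reads of their library. How reads with several hits were treated is not given in the sources used here. A gene not listed in a library was taken as 0.

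The genes were chosen on RPKM by the rule in the report, and 2 genes that the rule leaves out by name, of which 1 meets it, are not reported here. The genes and lists were chosen with earlier results of these data known. Counts were tested with edgeR 4.0.16 in R 4.3.3 (quasi-likelihood test, TMM, filterByExpr with a minimum count of 10) and Benjamini-Hochberg adjustment over all genes tested. A gene passed with an adjusted p below 0.001 and a log2 fold change beyond 1 either way, and the SE is the log2 fold change divided by the square root of F. Alternatives were DESeq2 1.42.0, limma 3.58.1 on log2(RPKM + 1), no filter, a replicate block, single stages and each library left out. The fits were tested on simulated data. No 2 replicates agreed within sampling noise. Labels do not say that replicates came from separate plants, so p-values measure the spread between libraries. Intervals (95%) and limits of 3 counts cover counting error only.

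Genes named are, for each line, the 5 with the highest mean, the 5 most abundant without a read in the other line, the 5 with the widest gap, up to 5 rising and 5 falling between the G. hirsutum lines, up to 3 each way for each step between stages, the 2 nearest each side of the limit, and those with a description. The gene models of runs and stretches, and 3 genes said to be so in the report, were named after their values were seen.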

Additional observations from a re-analysis of the deposited data

How the results depend on the processing

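The rule gave 266 to 354 genes under a 1.5-fold gap, a mean of at least 0.5 RPKM, 0.1 RPKM added or TMM scaling, 189 with a 4-fold gap, 185 with a mean of at least 4 RPKM, and 287 to 305 with 1 library left out. The number of genes called between the G. hirsutum lines, 12 over all stages, was 10 to 13 with 1 library left out, 0 in seedlings alone, 2 at pre-squaring alone (both among the 12) and 7 at squaring alone (4 among the 12), where fewer samples enter. From seedling to pre-squaring, the 8 calls in Hai1 became 14 with DESeq2 and 4 to 9 with 1 library left out. The 19 calls in Xinhai16 became 59 with DESeq2, 31 with limma and 5 to 85 with 1 library left out, the 85 without Gb1np replicate 3. From pre-squaring to squaring, the 9 calls in Xinhai16 became 16 with DESeq2 and 3 to 10 with 1 library left out, and Hai1 stayed at 0 to 0. The cause of these shifts was not tested. DESeq2 kept 12 of 12, 8 of 8, 19 of 19 and 9 of 9 calls.

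Replicate numbers did not pair the samples: same-numbered libraries correlated between -0.18 and 0.16 in their deviations from group means. With a replicate block, the calls were 9 between the G. hirsutum lines, 8 and 0 in Hai1, and 11 and 5 in Xinhai16.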
